A study of Apera spica-venti with 7 samples.

Results

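The leaf and the root of loose silky bentgrass (Apera spica-venti), an annual grass weed of winter cereals, were compared by the proteins that their assembled transcripts encode. Leaf and root were both taken at BBCH 34 to 36, the growth stage of stem elongation, from greenhouse plants grown from a mixture of seeds of herbicide-susceptible populations, and RNA of several plants was pooled for each organ. For each organ 1 library was compared here, so no value below has a replicate and no test between organs was possible. The plants behind a library cannot be told apart. Each library was assembled on its own, and every row is 1 assembled transcript with the best matching plant protein. Matches with an e-value above 0.1 were dropped, and so were rows whose best match carried 1 of 9 green-algal species codes. This left 28376 of 32001 transcripts in leaf and 38409 of 46168 transcripts in root, or 66785 of the 289634 transcripts of the 7 single-tissue assemblies.

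In grasses the leaf blade carries out photosynthesis, in which chlorophyll-binding proteins of the thylakoid membranes capture light and the enzymes of the chloroplast stroma fix carbon dioxide. The root takes up water, nitrate, ammonium and phosphate, and its growing tip holds a meristem of dividing cells that keep copying their DNA. Root cell walls are crosslinked and loosened by large families of secreted enzymes, among them the class III peroxidases.

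A number of transcripts is the number of assembled sequences, not a level of expression, because the authors evened out read depth before assembly and merged like sequences. Fragments of 1 gene and copies from different plants each count as a row. Shares below are shares of the kept rows of an organ, with 95% Wilson intervals, and ratios are leaf over root with 95% intervals on the log scale. These intervals cover counting error only and say nothing about the spread between plants. A feature with no row in an organ could still have a share of up to 0.0106% in leaf or 0.00781% in root, the share that 3 rows would give.

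The leaf rows matched 21683 different proteins and the root rows 28692. The median peptide length was 194 amino acids in leaf and 203 amino acids in root, and the median similarity to the matched proteins was 87% in leaf and 85% in root. A similarity under 70% was found for 11.9% of leaf rows (11.6 to 12.3%) and 17.0% of root rows (16.6 to 17.4%). A GO name was present on 76.6% of leaf rows and 74.8% of root rows, and an enzyme code on 14.8% of leaf rows and 13.4% of root rows. A protein name that states a function was present on 23.6% of leaf rows (23.1 to 24.1%) and 24.1% of root rows (23.7 to 24.5%), and these intervals overlapped.

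The marker names of leaf were found in both organs. The small chain of RuBisCO, the carbon-fixing enzyme, had 4 rows in leaf and 2 in root, and its large chain, which was not among the markers, 1 and 2. Phosphoribulokinase, which regenerates the acceptor of carbon dioxide, had 4 rows in leaf and 1 in root. Names with chlorophyll a-b binding had 31 rows in leaf and 20 in root, and subunits of the photosystems had 18 in leaf and 16 in root. Leaf marker transcripts were therefore assembled from the root library as well. Of the root markers, nitrate transporter had 3 rows in leaf and 10 in root, and nicotianamine synthase, which makes the precursor of the phytosiderophores, had 0 in leaf and 1 in root. The bare name casp had 18 rows in leaf and 29 in root, and the files do not say whether it stands for proteins of the Casparian strip. In bulk samples such as these, fewer cells of a type and less RNA per cell cannot be told apart.

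Protein names were compared first, because they are the most specific. Of 3925 names that state a function, 235 had at least 10 rows over both organs, and their median log2 ratio was -0.03. A ratio of at least 2 in either direction, with 0.5 added to both counts, was reached by 39 names, or 16.6% of those compared. Of these, 11 names (4.68%) lay toward leaf and 28 names (11.9%) toward root. The Wilson intervals of leaf and root were apart for 0 names toward leaf and 10 names (4.26%) toward root. When each matched protein was counted once, 1 name lay toward leaf and 10 toward root, and 8 of these 10 were among the 28.

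**Figure D1:**
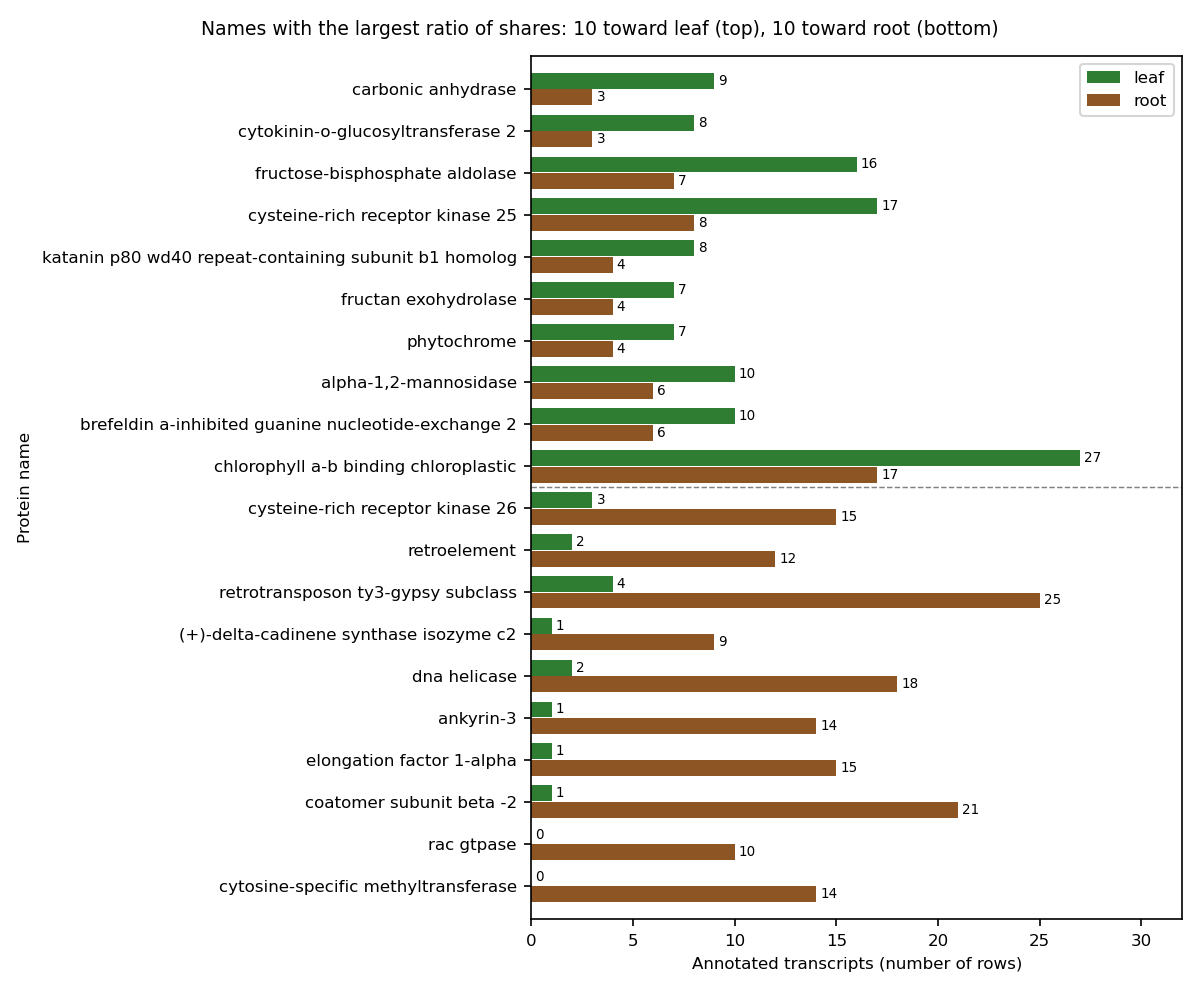
Number of annotated transcripts (x axis) with each protein name (y axis) in leaf (green) and root (brown), for the 10 names with the largest ratio of shares toward leaf, above the dashed line, and the 10 toward root, below it. Toward leaf the numbers ran up to 27 rows against 17 in root, whereas toward root 8 names had 2 rows or fewer in leaf.

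The names toward leaf included enzymes of carbon metabolism and light proteins. Carbonic anhydrase, which interconverts carbon dioxide and bicarbonate, had 9 rows in leaf and 3 in root, a ratio of 4.06 (1.10 to 15). Fructose-bisphosphate aldolase, an enzyme of the Calvin cycle and of glycolysis, had 16 rows in leaf and 7 in root, a ratio of 3.09 (1.27 to 7.52). Chlorophyll a-b binding protein of the chloroplast, the main light-harvesting antenna protein, had 27 rows in leaf (0.0952%) and 17 in root (0.0443%), a ratio of 2.15 (1.17 to 3.94). These rows matched 5 proteins in leaf and 6 in root, and with each protein counted once the log2 ratio was 0.16. Phytochrome, the red light receptor, had 7 rows in leaf and 4 in root, and its interval included 1 (0.693 to 8.09). Fructan exohydrolase, which breaks down the storage sugars of cool-season grasses, likewise had 7 rows in leaf and 4 in root.

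The other names toward leaf belonged to signalling, trafficking and the cytoskeleton. Cysteine-rich receptor kinase 25, a membrane kinase, had 17 rows in leaf and 8 in root, a ratio of 2.88 (1.24 to 6.66). Cytokinin-O-glucosyltransferase 2, of a family that inactivates cytokinins by adding glucose, had 8 rows in leaf and 3 in root. Katanin p80, a subunit of the enzyme that severs microtubules, had 8 and 4. Alpha-1,2-mannosidase, which trims sugar chains on proteins, and the brefeldin A-inhibited guanine nucleotide-exchange protein 2, which works in vesicle traffic, each had 10 rows in leaf and 6 in root. U-box domain-containing protein 4 had 8 rows in leaf and 5 in root. Apart from the kinase, the intervals of these names included 1.

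Leaf rows of these names were often short. The 9 carbonic anhydrase rows of leaf had a median of 126 amino acids, against 210 for the 3 rows of root, and 6 of the 9 matched the same protein, W5I2I1 of wheat. The aldolase rows had a median of 244 amino acids in leaf and 389 in root. Cytokinin-O-glucosyltransferase 2 rows summed to 1222 amino acids in leaf and 1487 in root, so that root held more sequence in fewer rows. Among the 11 names toward leaf, leaf rows had the shorter median in 8 and the larger summed length in 8. Over all 233 names found in both organs, leaf rows were shorter for 115 names and longer for 114. The names toward root showed the reverse, with root rows often the shorter ones. Of the 26 such names found in both organs, leaf rows had the longer median in 19 and the shorter in 6. Their summed length was larger in leaf for 0 of the 26.

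Among the names toward root were enzymes that act on DNA. Cytosine-specific methyltransferase, which adds methyl groups to cytosine in DNA, had 0 rows in leaf and 14 in root, and its share was at least 3.45-fold lower in leaf when leaf was set to the 3 rows of the limit. The 14 root rows came from 10 assembled genes and matched 3 proteins with a median similarity of 94.5%. The name was present in each of the other single-tissue assemblies, with 12 rows in stem and 8, 8, 8 and 13 rows in seeds at BBCH 05, 07, 08 and 09. Leaf was the only single-tissue assembly without it. DNA helicase, a name that here covers the MCM proteins which unwind DNA at replication origins, had 2 rows in leaf and 18 in root, a ratio of 0.150 (0.0349 to 0.648), with 8 rows in stem and 10 to 14 in seeds. Its root rows matched 10 proteins, and the 2 leaf rows both matched N1QWX7.

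**Figure D2:**
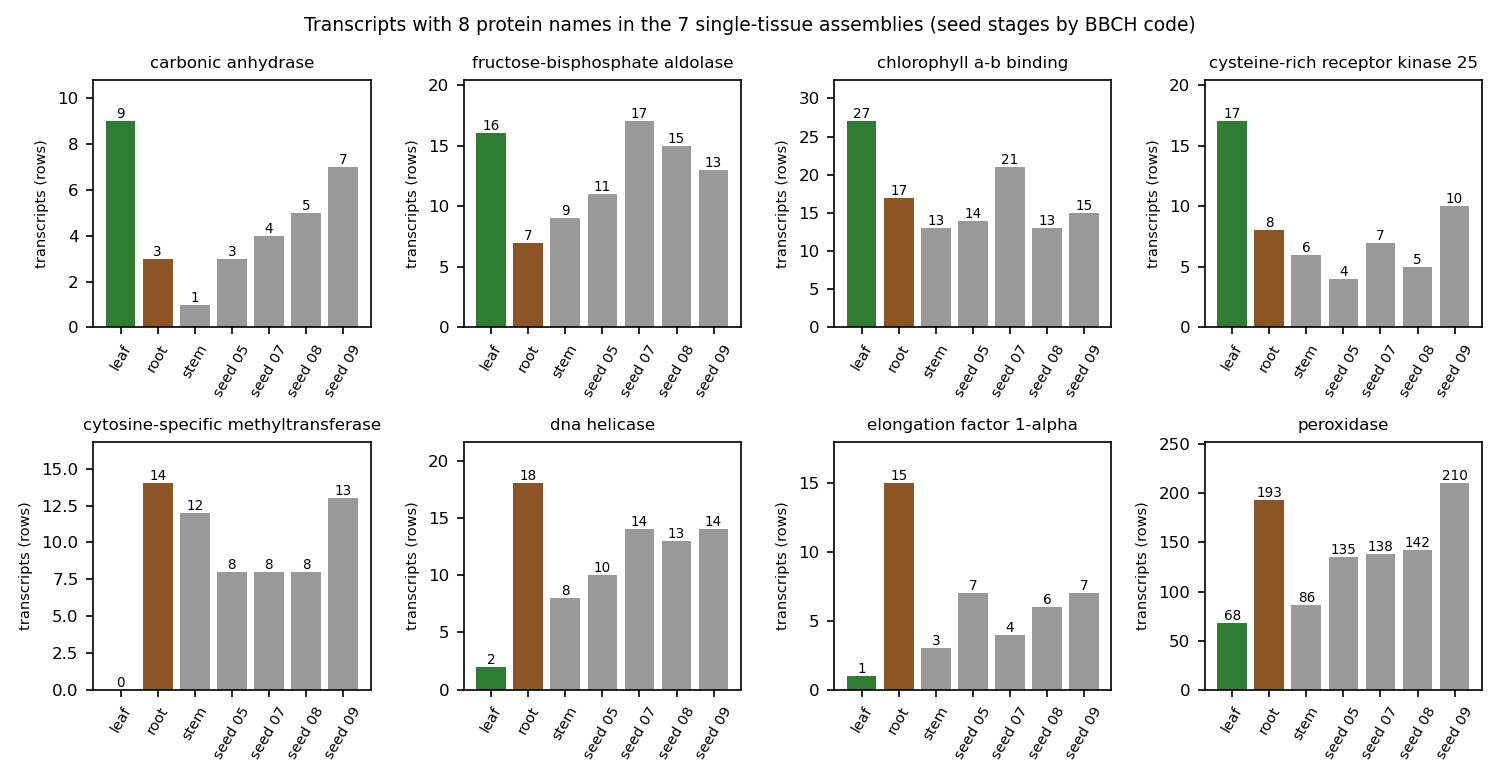
Number of transcripts (y axis, rows) with each of 8 protein names in the 7 single-tissue assemblies (x axis), with leaf in green, root in brown and stem and the seed stages in grey. Cytosine-specific methyltransferase was at 0 rows in leaf alone, and leaf had the most rows of carbonic anhydrase (9), chlorophyll a-b binding protein (27) and cysteine-rich receptor kinase 25 (17).

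Histones, the proteins that package DNA, were also more numerous in root. Histone H2A had 9 rows in leaf and 29 in root, a ratio of 0.420 (0.199 to 0.887), with 13 rows in stem and 10 to 17 in seeds. Histone H4 had 2 rows in leaf and 9 in root. Histone H2B was not past the ratio, with 6 rows in leaf and 10 in root.

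Proteins of translation and traffic formed a further part of the names toward root. Elongation factor 1-alpha, which brings aminoacyl-tRNA to the ribosome, had 1 row in leaf and 15 in root, a ratio of 0.0902 (0.0119 to 0.683). The leaf row was 476 amino acids long with a similarity of 97%, whereas the root rows had a median of 165 amino acids, and 9 of them matched a single protein, F2DPR2. Coatomer subunit beta-2, of the coat of Golgi vesicles, had 1 row in leaf and 21 in root, but the root rows had a median similarity of 61%. Ribosomal protein SA of the 40S subunit had 2 rows in leaf and 8 in root. Actin 3 isoform 3 had 3 rows in leaf and 14 in root, and all of them matched the same protein.

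Some names toward root rested on 1 matched protein. Rac GTPase, a small switch protein, had 0 rows in leaf and 10 in root, all matching Q3ZVR8 with similarities between 54% and 94%, and it was at least 2.46-fold lower in leaf. Stem and the seed stages had 0 rows of it, apart from 1 row in seeds at BBCH 09. Ankyrin-3, a repeat protein of the membrane skeleton in animals, had 1 row in leaf and 14 in root, and the root rows all matched M8A2S2 with a median similarity of 72.5%. When proteins were counted once each, ankyrin-3 had 1 protein in leaf and 1 in root. Pleiotropic drug resistance protein 5, an efflux transporter, had 2 rows in leaf and 8 in root, all on M8ALM4.

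Several further enzymes lay toward root. Sulfotransferase, which adds sulphate groups to small molecules, had 6 rows in leaf (0.0211%) and 28 in root (0.0729%), a ratio of 0.290 (0.120 to 0.700). Flavin-containing monooxygenase had 8 rows in leaf and 29 in root, a ratio of 0.373 (0.171 to 0.817), with 17 in stem and 27 to 30 in seeds. Terpene cyclase/mutase, which closes the rings of triterpenes, had 4 rows in leaf and 15 in root. Delta-cadinene synthase, a sesquiterpene synthase, had 1 row in leaf and 9 in root, with 1 in stem and 8 to 13 in seeds. Branched-chain amino acid aminotransferase, of amino acid metabolism, had 2 rows in leaf and 9 in root. Each of these names had fewer rows in leaf than in any of the seed stages.

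Receptor kinases did not all lie on 1 side. Against the 17 and 8 rows of cysteine-rich receptor kinase 25, number 10 had 7 rows in leaf and 28 in root (0.338, 0.148 to 0.775), number 26 had 3 and 15, and number 28 had 3 and 11. Over the 22 names of this family, 76 rows were found in leaf and 144 in root, a ratio of 0.714 (0.541 to 0.943). In all, 6 of these names had the larger share in leaf and 16 the larger share in root. The family was not among the planned lists, and its sum holds the members named above, so its interval gives no separate support. All receptor-like kinases together had 280 rows in leaf and 400 in root, a ratio of 0.948 (0.814 to 1.10).

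Protein names were also summed into lists by function. Of 38 lists, 15 had a ratio above 1. The Wilson intervals of the organs were apart for 1 list toward leaf and 3 lists toward root. All names without a stated function had 76.4% of leaf rows and 75.9% of root rows, a ratio of 1.01 (0.998 to 1.01).

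**Figure D3:**
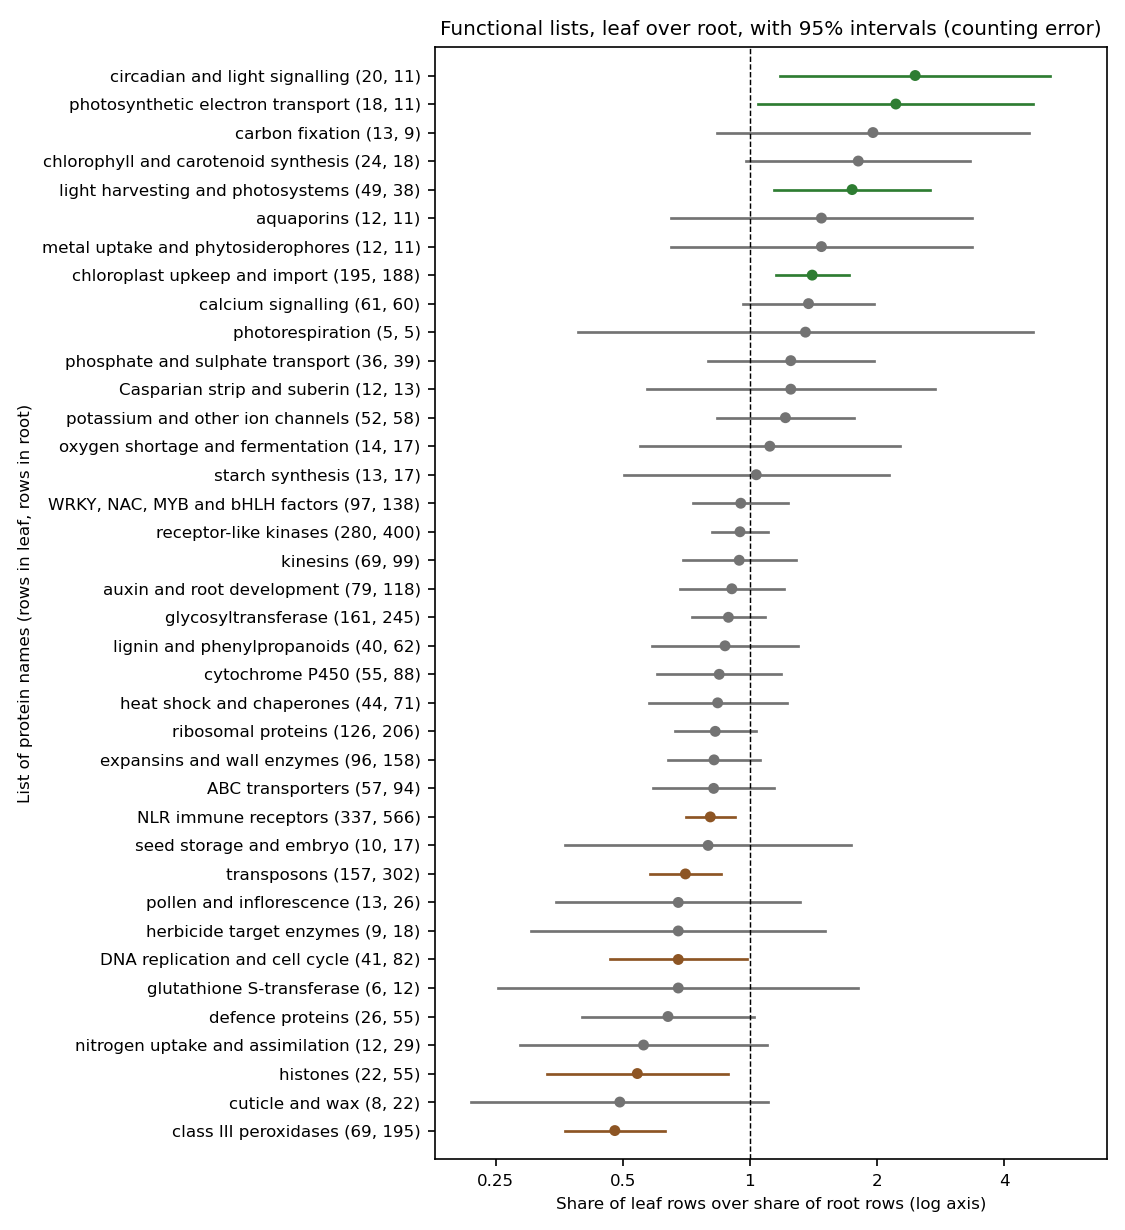
Ratio of the share of leaf rows to the share of root rows (x axis, log scale) for each list of protein names (y axis, with rows in leaf and then in root in brackets). Points are ratios and lines 95% intervals for counting error, green where the whole interval is above 1, brown where it is below 1 and grey otherwise; the photosynthesis lists lie above 1 and the class III peroxidases lowest, at 0.479.

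The photosynthesis lists lay toward leaf. Light harvesting and photosystems had 49 rows in leaf (0.173%) and 38 in root (0.0989%), a ratio of 1.75 (1.14 to 2.67), and the shares in stem (0.0926%) and seeds (0.0813 to 0.0916%) were below that of root. Besides the chlorophyll a-b binding proteins the list held photosystem I P700 apoprotein A2, with 4 rows in each organ, and photosystem II D2, with 4 in leaf and 2 in root. Photosynthetic electron transport had 18 rows in leaf and 11 in root, a ratio of 2.21 (1.05 to 4.69), with ferredoxin-NADP reductase, the enzyme that makes NADPH in the chloroplast, at 5 and 4. Carbon fixation had 13 rows in leaf and 9 in root, and chlorophyll and carotenoid synthesis 24 in leaf and 18 in root, and both intervals included 1. Photorespiration had 5 rows in each organ. Chloroplast upkeep and import had 195 rows in leaf (0.687%, 0.598 to 0.790%) and 188 in root (0.489%, 0.424 to 0.564%), a ratio of 1.40 (1.15 to 1.71). This was the list whose organ intervals were apart, but 0 of its 4 names with enough rows was past the ratio of 2. It is not separate from the lists above, since names such as a chloroplast ATP synthase subunit were counted in both. Chloroplast ribosomal proteins were likewise also counted among the ribosomal proteins. When each matched protein was counted once, the ratio of light harvesting and photosystems was 1.2 and that of chloroplast upkeep and import 1.3.

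Light signalling had the highest ratio of the lists but few rows. Circadian and light signalling had 20 rows in leaf and 11 in root, a ratio of 2.46 (1.18 to 5.14). Phototropin-1, a blue light receptor that bends shoots toward light, had 4 rows in leaf and 1 in root, and the flowering regulator Constans had 3 in leaf and 1 in root. With each matched protein counted once the ratio was 1.18.

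The class III peroxidases had the lowest ratio. They had 69 rows in leaf (0.243%, 0.192 to 0.308%) and 195 in root (0.508%, 0.441 to 0.584%), a ratio of 0.479 (0.364 to 0.630). The plain name peroxidase made up 68 rows in leaf, matching 47 proteins, and 193 rows in root, matching 136 proteins. Stem had 86 rows of it, and the seed stages 135, 138, 142 and 210. The ratio of the list stayed between 0.460 and 0.483 under the alternatives run on it, among them the count of distinct proteins.

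Uptake and wall lists gave mixed results. Nitrogen uptake and assimilation had 12 rows in leaf and 29 in root, a ratio of 0.560 (0.286 to 1.10). In it glutamine synthetase, which fixes ammonium into glutamine, had 5 rows in leaf and 10 in root, and ammonium transporter had 2 and 5. Nitrate transporter, with 3 and 10, was past the ratio of 2. Phosphate and sulphate transport (36 in leaf, 39 in root), aquaporins (12 and 11) and metal uptake (12 and 11) had ratios above 1 with intervals that included 1. Most rows of the phosphate and sulphate list were purple acid phosphatases (23 in leaf, 21 in root), which are enzymes and not transporters. Expansins and wall enzymes had 96 rows in leaf and 158 in root, a ratio of 0.822 (0.638 to 1.06). Among these the cellulose synthases without a number had 29 rows in leaf and 22 in root, while endoglucanase, which cuts glucan chains, had 8 and 23, pectinesterase 11 and 28, and xyloglucan endotransglucosylase 15 and 31. Expansin itself, which loosens walls during growth, had 0 rows in leaf and 3 in root. Lignin and phenylpropanoids had 40 rows in leaf and 62 in root, a ratio of 0.873 (0.587 to 1.3), and 0 of its 2 names with enough rows was past the ratio of 2. In it laccase, which polymerises lignin precursors, had 8 rows in leaf and 22 in root, and cinnamyl alcohol dehydrogenase 5 had 6 and 2. Cuticle and wax had 8 rows in leaf and 22 in root (0.492, 0.219 to 1.11), and Casparian strip and suberin 12 and 13 (1.25, 0.570 to 2.74). Both of these intervals included 1. The Casparian strip and suberin rows were mostly cytochrome P450s, which were also counted in the P450 list. Among them 86B1 had 3 rows in leaf and 5 in root, 94A1 3 and 3, and 86A2 4 and 1. In the cuticle list GDSL esterase/lipase, of a family with members in cutin synthesis, had 6 and 14.

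Immune receptors and transposons were the other lists with intervals apart. Nucleotide-binding disease resistance proteins had 337 rows in leaf (1.19%, 1.07 to 1.32%) and 566 in root (1.47%, 1.36 to 1.60%), a ratio of 0.806 (0.705 to 0.921), and 0 of their 12 names with enough rows was past the ratio of 2. RPM1, which guards against bacterial effectors in Arabidopsis, had 80 rows in leaf and 150 in root. When each matched protein was counted once the ratio of the list was 0.948. Transposon proteins had 157 rows in leaf (0.553%) and 302 in root (0.786%), a ratio of 0.704 (0.581 to 0.853), against 0.607% in stem and 0.489 to 0.540% in seeds. Retrotransposons of the Ty3-gypsy subclass had 4 rows in leaf and 25 in root, and proteins named retroelement 2 in leaf and 12 in root.

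The list of smaller defence proteins had 26 rows in leaf and 55 in root, a ratio of 0.640 with an interval that included 1 (0.401 to 1.02). In it Bowman-Birk type trypsin inhibitor, a small inhibitor of digestive proteases, had 0 rows in leaf and 7 in root. Germin 1-3 had 0 and 4, whereas chitinase had 3 and 1. Lipoxygenase, the first enzyme of jasmonate synthesis, had 13 rows in leaf and 18 in root. The list of DNA replication and the cell cycle had 41 rows in leaf and 82 in root, a ratio of 0.677 (0.465 to 0.984), and DNA polymerase within it had 11 and 12. The list of histones had 22 in leaf and 55 in root (0.541, 0.330 to 0.887). Ribosomal proteins had 126 rows in leaf and 206 in root (0.828, 0.664 to 1.03), with a median similarity of 93% in leaf and 88% in root. The lists of other tissues were small. Seed storage and embryo proteins had 10 rows in leaf and 17 in root, and pollen and inflorescence proteins 13 in leaf and 26 in root.

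The families linked to herbicide metabolism did not separate the organs beyond counting error. Cytochrome P450 had 55 rows in leaf and 88 in root (0.846, 0.604 to 1.18), glutathione S-transferase 6 and 12 (0.677, 0.254 to 1.80), glycosyltransferase 161 and 245 (0.889, 0.730 to 1.08), and ABC transporters 57 and 94 (0.821, 0.591 to 1.14). With each protein counted once the ratio of ABC transporters was 1.08. Single members differed more, but most of the P450s named next had fewer than 10 rows over both organs. Cytochrome P450 89A2 had 2 rows in leaf and 10 in root, 71D11 had 1 and 7, and 87A3 had 0 and 5, while 71A1 had 5 in leaf and 2 in root and 86A2, a fatty acid hydroxylase, 4 and 1. Of the 4 P450 names with enough rows, 1 was past the ratio of 2 toward root and 0 toward leaf. Among them 71D7 had 6 rows in leaf and 7 in root, and 99A2 had 8 and 7. The C family of ABC transporters, which pump conjugated compounds into the vacuole, had 18 rows in leaf and 44 in root (0.554, 0.320 to 0.958). Its member 10 had 5 rows in leaf and 18 in root, and its member 3 had 2 and 8. The C family was not among the planned lists, and its sum holds these members, so its interval gives no separate support. Of the 7 names of this family, 3 had the larger share in leaf, among them member 2 with 2 rows in leaf and 1 in root, and 4 the larger share in root. Glutathione S-transferase GSTU6 had 3 rows in leaf and 4 in root.

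A list of 8 names of enzymes and proteins that herbicides bind had 9 rows in leaf and 18 in root (0.677, 0.304 to 1.51). Most of these rows were tubulins, and acetyl-CoA carboxylase was not among the 8 names. Acetolactate synthase, the target of the sulfonylureas, had 1 row in leaf and 3 in root. The enzyme 3-phosphoshikimate 1-carboxyvinyltransferase, which glyphosate inhibits, had 1 row in each organ, and 4-hydroxyphenylpyruvate dioxygenase had 0 in leaf and 1 in root. Tubulin beta-1 chain had 2 rows in leaf and 4 in root, and beta-2 chain 4 in leaf and 2 in root. The alpha tubulins had more rows in root, with alpha-tubulin at 0 in leaf and 3 in root, alpha-2 chain 0 and 1, and alpha-3 chain 1 and 3. With so few rows no difference was detectable for these proteins.

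GO names describe processes, functions and cell parts. Of 4054 names, 1534 had at least 10 rows over both organs, and their median log2 ratio was 0.23. A ratio of at least 2 was reached by 108 names (7.04%), of which 77 (5.02%) lay toward leaf and 31 (2.02%) toward root. When each matched protein was counted once, only 15 names lay toward leaf, 10 of them among the 77, and 23 toward root, 11 of them among the 31.

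Names of photosynthesis, plastids and pigments lay above a ratio of 1 in 45 of 46 cases, with a median log2 ratio of 0.76 against 0.23 over all names. Of the 46, 9 were past the ratio of 2 toward leaf, against 5.02% of all names, and 0 toward root. Photosynthetic electron transport in photosystem I had 34 rows in leaf and 20 in root, a ratio of 2.30 (1.32 to 4.0), thylakoid lumen 33 and 19, and thylakoid 37 and 24. Photosystem I assembly and xanthophyll biosynthetic process each had 8 rows in leaf and 4 in root. Of the rows with electron transport in photosystem I, 13 in leaf and 6 in root had a protein name that states a function. The most frequent was dihydrodipicolinate reductase in leaf (3 rows) and 50S ribosomal protein L31 in root (2 rows). A row can carry several GO names, so the 46 are not separate counts. For example, M0Y091 had 3 root rows under plastid translation and 3 under thylakoid. With proteins counted once, 4 of 41 names of this group were past the ratio toward leaf, 40 were above 1 and the median of the 41 was 0.52 against 0.16 over all names. The 5.02% was counted on rows, so it cannot be set against the 4 of 41. Chlorophyll biosynthetic process, chosen after its values were seen, had 75 rows in leaf (0.264%) and 51 in root (0.133%), a ratio of 1.99 (1.40 to 2.84). The broad name chloroplast, chosen likewise, had 389 and 363 rows, a ratio of 1.45 (1.26 to 1.67).

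Light and tropic responses gave 7 of 21 names past the ratio toward leaf, against 5.02% of all names. With each protein counted once, 2 of 17 were past it, and the median log2 ratio of the 17 was 0.61 against 0.16 over all names. The 5.02% was counted on rows and cannot be set against the 2 of 17. The light reaction of photosynthesis, with 32 rows in leaf and 21 in root, was counted in this group and in the one before. Response to far red light had 48 rows in leaf and 31 in root (2.1, 1.33 to 3.29), response to red light 44 and 29, and phototropism 16 and 9. The rows with blue light photoreceptor activity, 15 in leaf and 9 in root, included 3 leaf rows named phototropin-1.

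Several of the GO names with the largest ratio toward leaf rested largely on 1 protein. Inflorescence morphogenesis had 12 rows in leaf and 3 in root (5.41, 1.53 to 19.2), and 6 of the leaf rows matched A0A0E0EPV2, a protein with no stated function. Lateral root formation, with 17 rows in leaf and 8 in root, held 6 leaf rows of the same protein. Guanosine tetraphosphate metabolic process, the turnover of an alarmone that plants hold in plastids, had 19 rows in leaf and 9 in root, of which I1ICW2 gave 8 in leaf and 3 in root. The response to starvation, with 11 and 5 rows, likewise held 8 leaf rows and 3 root rows of I1ICW2. Phosphate ion transport had 9 rows in leaf, on 7 proteins, and 3 in root, and 2 of the leaf rows and 1 of the root rows were named ubiquitin-conjugating enzyme E2 24. Para-aminobenzoic acid metabolic process and regulation of jasmonic acid mediated signaling pathway each had 8 rows in leaf and 3 in root, and so did guanosine-3',5'-bis(diphosphate) 3'-diphosphatase activity, all on I1ICW2. Cellular component biogenesis had 7 rows in leaf, each on a protein of its own, and 3 in root, and transcriptional activator activity 12 and 6.

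Toward root the GO names repeated the DNA enzymes. C-5 methylation of cytosine and DNA (cytosine-5-)-methyltransferase activity each had 0 rows in leaf and 12 in root, and both were at least 2.96-fold lower in leaf. The MCM complex had 1 row in leaf and 15 in root, 13 of the root rows being named DNA helicase. DNA unwinding involved in DNA replication had 1 row in leaf and 13 in root, and DNA replication initiation 14 in leaf and 51 in root (0.372, 0.206 to 0.671). The broader DNA replication, chosen after its values were seen, had 55 rows in leaf and 86 in root, and its interval included 1 (0.617 to 1.21). Regulation of cell proliferation, with 3 rows in leaf and 17 in root, again held DNA helicase rows.

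Other GO names toward root belonged to protease inhibition, ribosomes and transport. Serine-type endopeptidase inhibitor activity had 3 rows in leaf and 22 in root (0.185, 0.0553 to 0.617), and 7 of the root rows were Bowman-Birk type trypsin inhibitors. The binding of 5S rRNA had 4 rows in leaf and 19 in root, 6 of them on 1 ribosomal protein, L5-1 of the 60S subunit. The maturation of 5.8S rRNA and LSU-rRNA had 3 rows in leaf and 12 in root, and the regulation of nucleic acid-templated transcription 2 and 9. Cation transport had 3 rows in leaf and 14 in root, malate transport 3 and 12, and N,N-dimethylaniline monooxygenase activity, the GO name of the flavin-containing monooxygenases, 7 and 27. Peroxidase activity, chosen after its values were seen, had 95 rows in leaf (0.335%) and 217 in root (0.565%), a ratio of 0.593 (0.466 to 0.754). Cell wall names had a median log2 ratio of -0.37 against 0.23 over all names, with 8 of 25 above a ratio of 1. Of the 25, 0 were past the ratio of 2 toward root, against 2.02% of all names. Pectin biosynthetic process, with 24 rows in leaf and 15 in root (2.17, 1.14 to 4.13), was past it toward leaf. Its rows matched 18 proteins in leaf and 14 in root, with median lengths of 177 and 536 amino acids. With each protein counted once, 2 of 23 cell wall names were past the ratio toward root and 0 toward leaf. The median log2 ratio of the 23 was then -0.45, against 0.16 over all names.

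Enzyme codes were compared for 194 of 663 codes, with a median log2 ratio of 0.28. Past the ratio of 2 were 13 codes (6.7%), with 9 (4.64%) toward leaf and 4 (2.06%) toward root. The Wilson intervals were apart for 0 codes toward leaf and 2 (1.03%) toward root. When each matched protein was counted once, 3 codes lay toward leaf, 0 of them among the 9, and 3 toward root, 1 of them among the 4.

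Toward leaf, code 4.2.1.1, carbonic anhydrase, had 9 rows in leaf and 4 in root (3.05, 0.938 to 9.89), and 4.1.2.13, fructose-bisphosphate aldolase, had 14 and 8. Codes 3.1.7.2 and 2.7.6.5, which break down and make the guanosine alarmone, had 8 and 3 rows, and 9 and 4 rows, and 8 leaf rows and 3 root rows of each code matched I1ICW2, a protein with no stated function. Codes 4.4.1.5 (lactoylglutathione lyase, 9 in leaf and 5 in root), 5.1.3.2 (UDP-glucose 4-epimerase, 13 and 8), 2.7.4.6 (nucleoside diphosphate kinase, 7 and 4) and 2.5.1.54 (the first step of the shikimate pathway, 7 and 4) all had intervals that included 1. So did the incomplete code 1.4, with 7 and 4 rows. It held 2 leaf rows of ferredoxin-dependent glutamate synthase and 3 root rows named for the NADH form of that enzyme.

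Toward root, code 2.1.1.37, DNA cytosine methyltransferase, had 0 rows in leaf and 12 in root, and 1.14.13.8, the flavin-containing monooxygenases, had 7 and 27 (0.351, 0.153 to 0.806). Catalase, 1.11.1.6, which breaks down hydrogen peroxide, had 3 rows in leaf and 11 in root, and 6 of the root rows matched 1 protein, C7J1Q0. The leaf rows of catalase had a median similarity of 100% and a median length of 345 amino acids, against 90% and 213 amino acids in root. Code 2.6.1.42, branched-chain aminotransferase, had 3 rows in leaf and 9 in root. Peroxidase, 1.11.1.7, was not past the ratio, with 90 rows in leaf and 201 in root (0.606, 0.473 to 0.777), and neither were laccase, 1.10.3.2, with 8 and 21, and pectinesterase, 3.1.1.11, with 10 and 26.

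Matched proteins found in only 1 of the organs were counted next. Of the 21683 proteins of leaf, 6665 (30.7%, 30.1 to 31.4%) were absent from root, and of the 28692 proteins of root, 13674 (47.7%, 47.1 to 48.2%) were absent from leaf, while 15018 were in both. More reads of root than of leaf entered the assembly, per the study's methods. Root also had more rows, and with root thinned to the number of leaf rows the numbers to be expected were 9709 in leaf alone and 10544 in root alone. Of the proteins in leaf alone, 89.2% had a single row and 99 had at least 3. Of those in root alone, 84.3% had a single row and 519 had at least 3.

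Proteins in 1 organ alone were looked up in the other assemblies. Of the proteins in leaf alone, 29.4% were found in stem, 32.4 to 35.4% in the seed stages and 49.0% in the assembly of all libraries. Of those in root alone, 39.6% were found in stem, 42.6 to 47.8% in seeds and 70.5% in the assembly of all libraries. Proteins in both organs were found in stem in 83.2% and in the seed stages in 80.3 to 83.2%. None of the other 5 single-tissue assemblies held 2227 (33.4%) of the proteins in leaf alone and 3612 (26.4%) of those in root alone, against 474 (3.16%) of the shared proteins.

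**Figure D4:**
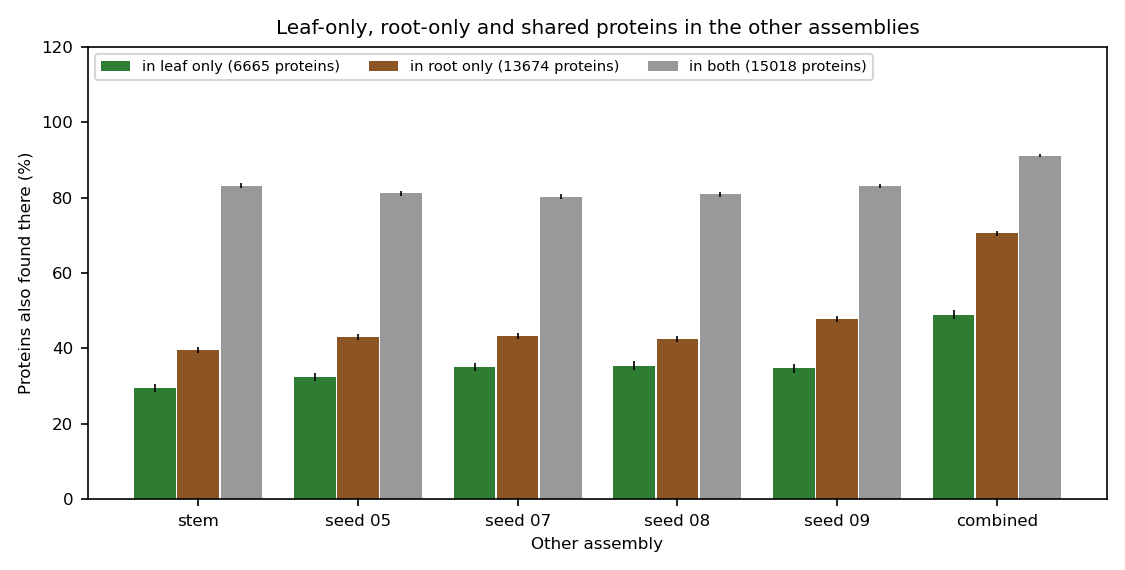
Percent of matched proteins (y axis) that were also found in each other assembly (x axis), for proteins in leaf only (green), in root only (brown) and in both (grey), with 95% Wilson intervals. The leaf-only proteins were the least often found again in every assembly, from 29.4% in stem to 49.0% in the combined assembly.

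Rows of proteins in 1 organ alone were shorter and less like their match. In leaf the median length was 152 amino acids for proteins in leaf alone and 217 for shared proteins, with similarities of 86% and 88%. In root the median length was 168 amino acids for proteins in root alone and 238 for shared proteins, with similarities of 82% and 86%. A similarity under 70% was found for 16.7% of leaf-only rows and 23.0% of root-only rows.

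**Figure D5:**
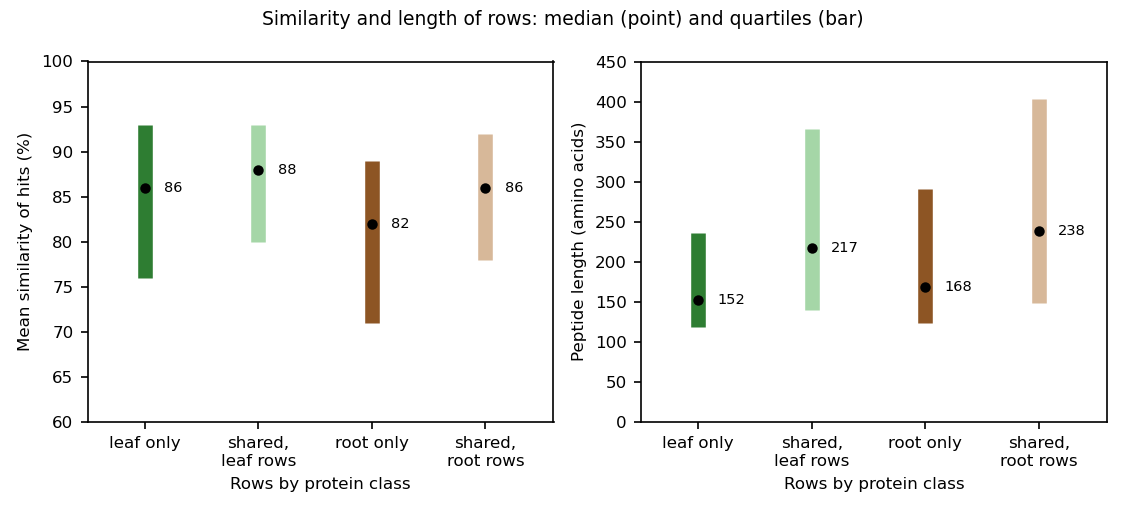
Mean similarity to the matched proteins (left panel, y axis in percent, from 60 to 100) and peptide length (right panel, y axis in amino acids) for rows of leaf-only proteins, shared proteins in leaf, root-only proteins and shared proteins in root (x axis), with medians as points and quartiles as bars. Rows of root-only proteins had the lowest median similarity, 82%, and rows of leaf-only proteins the shortest median length, 152 amino acids.

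The proteins in leaf alone with most rows had no more than 6. A0A0E0EPV2 and I1I439, both without a stated function, had 6 rows each. With 4 rows each followed eukaryotic translation initiation factor 3 subunit C (A0A0E0G0D5), a calcium-dependent kinase of wheat (B2KTB1) and sperm-associated antigen 6 (M8A5F7), together with 7 uncharacterized proteins, A0A0A9DE02, A0A0E0DLW5, I1HYW9, N1QYT2, T1LYZ5, W5EKT1 and W5GC15. The sperm-associated antigen 6 protein was in none of the other single-tissue assemblies and had 1 row in the assembly of all libraries. A receptor kinase 2 (M8BSL0) had 4 leaf rows as well, with 1 row in stem. A subunit of magnesium-protoporphyrin IX chelatase (B9HP09), the enzyme that directs protoporphyrin into chlorophyll, had 3 leaf rows, 0 root rows and 0 stem rows, but 1 or 2 rows in each seed stage. The name itself was not confined to leaf, with 4 rows in leaf and 2 in root.

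The proteins in root alone with most rows had up to 14. They were ankyrin-3 (M8A2S2, 14 rows), M0VAU4 (12) and B4FA31 (11) without a stated function, coatomer subunit beta-2 (M7YS28, 11), Rac GTPase (Q3ZVR8, 10), elongation factor 1-alpha (F2DPR2, 9), M0V451 without a stated function (9), cysteine-rich receptor kinase 10 (M8C761, 9) and M8BAG2 and W5ALI8 without a stated function (8 each). B4FA31 matched with a median similarity of 46% and coatomer subunit beta-2 with 58%, whereas elongation factor 1-alpha matched with 88%. Of these proteins, B4FA31, Rac GTPase, elongation factor 1-alpha and W5ALI8 had 0 rows in stem.

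By name, 568 of 2765 names of leaf (20.5%) were absent from root and 1160 of 3357 names of root (34.6%) were absent from leaf. Among the names in leaf alone the most frequent had 4 rows, insulin-degrading enzyme, a metalloprotease, and sperm-associated antigen 6. Squalene monooxygenase, which makes the epoxide from which sterols are formed, had 3 rows in leaf, all on 1 protein, and no row under that name in any other assembly, and the same held for SCAR 2, a regulator of actin assembly, with 3 rows. Sucrose synthase 2 had 3 leaf rows, with 1 in stem. Among the names in root alone, 18 had at least 5 rows, while 0 of those in leaf alone did. Besides the cytosine methyltransferases, Rac GTPase and the trypsin inhibitors these included 40S ribosomal proteins S4 (7 rows) and S3a (6), 60S ribosomal protein L5-1 (6), cellulose synthase D1 (5), of a group known for tip-growing cells such as root hairs, cation/H+ antiporter 15 (5) and cytochrome P450 87A3 (5). MADS-box transcription factor 27 had 4 rows in root and 0 in leaf, with 1 in stem and 2 or 3 in each seed stage. Cellulose synthase D1 had 1 row in stem and 2 to 5 in seeds.

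The species codes of the matched proteins also differed between the organs. Of 57 codes with at least 30 rows over both, 1 lay past the ratio of 2 toward leaf and 7 toward root. The code ARACU had 0 rows in leaf and 57 in root, at least 14.0-fold lower in leaf, with 1 row in stem and 14 to 68 in seeds. SELML had 6 rows in leaf and 49 in root, and PHYPA 10 and 64. Together these 3 codes had 16 rows in leaf (0.0564%) and 170 in root (0.443%), with median similarities of 50.0% and 65.0%. Of the root rows, 8 were ribosomal proteins, and 5 matched a single histone H2B, A0A0D6R1Z8. Without the 3 codes, 28 names still lay toward root and 11 toward leaf, the same names as with them. Before they were left out, the 9 green-algal codes had 36 rows in leaf and 400 in root.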

How the data were processed

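Leaf and root libraries of Apera spica-venti (1 each, pooled RNA of several plants) were compared; the other leaf and root libraries that the study's methods mention were not analysed here. The authors clipped reads with Trimmomatic (named in the submitters' processing notes without a version), evened out depth by k-mers, assembled with Trinity, reduced redundancy, translated the longest reading frame and searched the peptides with blastp against plant proteins of UniProtKB; Blast2GO gave GO names and enzyme codes. E-values are a score of the top protein match and mean similarities a percent, and both, like peptide length, were taken as the authors deposited them. The number of columns without a sample was 0. The tables hold no read numbers; per the study, more read pairs were left for root than for leaf after quality control and normalization.

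Rows with an e-value of at most 0.1 and no green-algal code (9 codes) were kept. Per organ, rows were counted for each GO name, enzyme code and protein name that states a function, with at least 10 rows over both organs, and called at a ratio of shares of at least 2 with 0.5 added to both counts. A count of 0 was set to 3 rows for a bound. Named were the 10 features with the largest ratio in each direction, the 10 proteins with most rows in each organ alone, list members past the ratio and the herbicide-related families; further names were chosen after their values were seen. Members and lists were chosen with earlier results of these data known, and the word rules of the lists were tightened after reading the matched names. The comparison was tested on simulated data. Counting used pandas 2.3.3 and NumPy 2.4.6 under Python 3.11.15, intervals SciPy 1.17.1 and plots matplotlib 3.10.9. Alternatives were stricter e-values, 1 transcript per assembled gene, distinct proteins, algal rows kept, at least 20 rows, a ratio of 1.5, shares of rows with the annotation and thinned root rows. A similarity of at least 70% and the removal of ARACU, PHYPA and SELML were added after seeing the data.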

Additional observations from a re-analysis of the deposited data

How the results depend on the processing

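With 1 library per organ no left-out replicate could be run, and no paired analysis was possible because each organ had a single sample. Of 74 alternative counts over the comparisons, 54 stayed within 1.5 times the reported count and 20 did not. With each matched protein counted once, 15 GO names lay toward leaf, 3 enzyme codes toward leaf, and 1 protein name toward leaf and 10 toward root. With at least 20 rows over both organs there were 26 GO names toward leaf and 12 toward root, 2 enzyme codes and 1, and 3 protein names and 10. With a ratio of 1.5 there were 347 GO names toward leaf and 120 toward root, 53 enzyme codes and 15, and 43 protein names and 61. With 1 transcript per assembled gene 14 enzyme codes lay toward leaf, and as shares of rows with an enzyme code 8 codes lay toward root. When proteins were told apart by name, 568 were in leaf alone and 1160 in root alone. Ankyrin-3 turned round, to a log2 ratio of 0.40, when proteins were counted once, since both organs then had 1. Of the other values of single features and lists, 728 lay within the counting interval of the reported value and 4 did not. Ratios of lists whose interval included 1 crossed it in 5 cases, ABC transporters (1.08) and photorespiration (0.992) with proteins counted once, kinesins (1.21) with 1 transcript per assembled gene, and starch synthesis with green-algal rows kept (0.987) and with a similarity of at least 70% (0.975). With proteins counted once the log2 ratio of chlorophyll a-b binding protein was 0.16, the ratio of nucleotide-binding disease resistance proteins 0.948 and that of circadian and light signalling 1.18. With green-algal rows kept, that of ribosomal proteins was 0.624. With a similarity of at least 70%, chosen after seeing the data, 5814 proteins were in leaf alone and 10961 in root alone.

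Depth limits names with few rows: 0 rows in leaf still allow 0.0106% of rows, and most features toward leaf had fewer than 20 rows. Fragments count as rows, so the counts depend on how completely each transcript was assembled.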

Other observations

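Proteins named for calcium signalling had 61 rows in leaf and 60 in root, a ratio of 1.38 (0.964 to 1.96). Auxin and root development had 79 rows in leaf and 118 in root, and root hair defective 3, a GTPase needed for root hair growth in Arabidopsis, had 1 and 8. Transcription factors of the WRKY, NAC, MYB and bHLH families had 97 rows in leaf and 138 in root (0.951, 0.734 to 1.23), and kinesins, the motor proteins of microtubules, 69 and 99 (0.943, 0.694 to 1.28). With 1 transcript per assembled gene the ratio of kinesins was 1.21.

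Starch synthesis had 13 rows in leaf and 17 in root (1.04, 0.503 to 2.13), and oxygen shortage and fermentation 14 and 17 (1.11, 0.550 to 2.26). Phenylalanine ammonia-lyase, the entry enzyme of the phenylpropanoid pathway, had 14 rows in leaf and 21 in root. Heat shock proteins and chaperones had 44 rows in leaf and 71 in root (0.839, 0.576 to 1.22).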
